A study of Mus musculus with 20 samples.

Results

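This account concerns the enzymes of xenobiotic metabolism in the mouse kidney cortex during acute injury. They were chosen by gene symbol from the deposited expression table: every symbol that begins with Cyp, Ugt, Sult, Ces, Fmo or Aox and a family number, with Gst and a class letter, or with Ephx. Of the 6025 genes in the table, 74 matched, 5 (Cyp24a1, Cyp27b1, Cyp2a5, Ces2e and Gsta1) were left out, and 69 remained. Of these, 43 are phase 1 enzymes (30 cytochromes P450, 5 carboxylesterases, 4 flavin monooxygenases, 3 epoxide hydrolases and 1 aldehyde oxidase) and 26 are phase 2 enzymes (12 glutathione S-transferases, 10 UDP-glycosyltransferases and 4 sulfotransferases). In RefSeq's mouse annotation 199 protein-coding symbols match the same patterns, so the table holds a part of each family. A few members carry a family name but act mainly on the body's own molecules: Cyp51 and Cyp7b1 on sterols, Cyp26b1 on retinoic acid, Gstz1 on a product of tyrosine breakdown and Ugt8a on ceramide.

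Phase 1 enzymes oxidize, reduce or hydrolyse drugs and other foreign compounds and so expose a chemical group, while phase 2 enzymes attach glucuronic acid, sulfate or glutathione, which makes the product more soluble. The products leave the cell through efflux transporters. In the kidney most of this machinery sits in the proximal tubule, and many of its P450 enzymes also make or remove lipid mediators from arachidonic acid.

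RNA sequencing covered 20 mice, 1 library each: 8 controls, 4 mice 24 h after ischemia-reperfusion injury (IRI), 4 mice 24 h after rhabdomyolysis and 4 mice 72 h after cisplatin, a platinum drug that is toxic to the proximal tubule. IRI interrupts and restores the renal blood flow, and rhabdomyolysis is muscle breakdown that floods the kidney with myoglobin. All mice were 8-week-old wild-type C57BL/6J animals (a standard inbred strain), and RNA came from whole cortex. The labels call the 8 controls mock, the design text names mock and vehicle controls together, and which control was which, the sex of the mice, the cisplatin dose and the way muscle injury was induced are not given in the sources used here. Library identifiers fall in 2 ranges, so IRI was set against controls 1 to 4, and rhabdomyolysis and cisplatin against controls 5 to 8, which those 2 injuries share. Between those 2 control sets limma called 0 of 5672 genes at an adjusted p under 0.05 (454 at an unadjusted p under 0.05). In bulk cortex, fewer cells of a type and less RNA per cell cannot be told apart.

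Values are the deposited CPM (a gene's reads scaled to a common library size), and each library holds 3476635 to 5396140 reads in the table. Sets of 4 values follow the libraries' numbers 1 to 4, controls are given by their range and median over all 8, and ± after a CPM value is the SD (n = 8 controls, n = 4 per injury). Log2 fold changes are on the log2(CPM + 1) scale, which understates the change of low genes, and ± after one is its standard error. "Called" means a limma adjusted p under 0.05 over the 5672 genes whose mean reached 1 CPM. Of the 69 members, 63 passed that minimum (40 phase 1 and 23 phase 2), and Aox1, Cyp2b10, Ephx3, Sult1e1, Sult5a1 and Ugt2a3 are described without a test. Every gene in the table differs 1.5-fold or more between some injury and the controls, so high shares of called genes are the background for every count.

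Most xenobiotic enzymes were lower in each injury, and the median log2 fold change of phase 1 was below that of phase 2 in each. In IRI, 40 of 63 members were called lower and 18 higher, where 40.1% of all genes tested were called lower, 40.6% higher and 80.7% in either direction. Of the members 63.5% were thus lower in IRI, above the share of all genes, and 28.6% higher, below it. In rhabdomyolysis 41 were lower and 16 higher (46.5% and 48.8% of all genes, 95.3% in either direction). In cisplatin 39 were lower and 20 higher (44% and 47.8% of all genes, 91.8% in either direction). The median log2 fold change of the members was -1.24 in IRI, -1.71 in rhabdomyolysis and -1.05 in cisplatin, while that of all genes tested was 0.08, 0.31 and 0.30. The libraries of injury and matched control did not overlap for 53, 57 and 59 of the 63 members, against 69.7%, 89.2% and 85.8% of all genes.

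By the 3 separate calls, 35 members were lower in every injury, 25 of phase 1 and 10 of phase 2 (36.9% of all genes), and 14 were higher in every injury, 7 of each phase (35.3% of all genes). Since rhabdomyolysis and cisplatin share their controls, these counts list the members and measure no agreement between injuries. Of the 14, Sult2b1, Ugt1a9, Cyp3a13 and Cyp26b1 exceeded 1 CPM in fewer than 4 controls. Every gene in the table lies above 1 CPM in at least 4 libraries, so they met that level only with injured libraries. Gstm5 alone was called in opposite directions in 2 injuries (0.705% of all genes). Of the 35 members lower in every injury, 19 had their lowest log2 fold change in rhabdomyolysis, 12 in cisplatin and 4 in IRI.

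**Figure D1:**
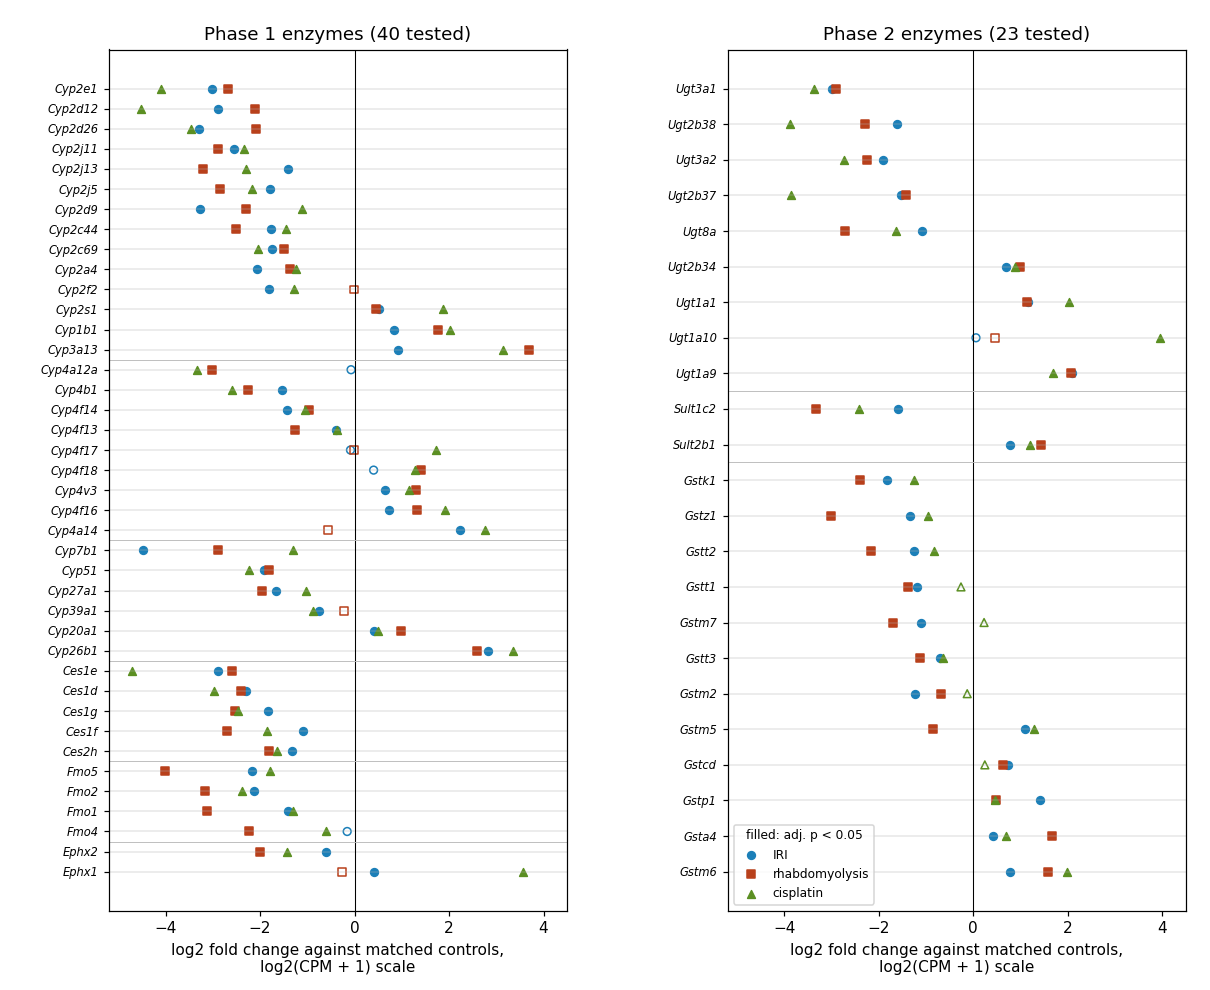
Log2 fold change against matched controls (x axis, log2(CPM + 1) scale) of the 40 phase 1 and 23 phase 2 members tested (rows, grouped by family), with 1 marker per injury, filled where the limma adjusted p was under 0.05. Carboxylesterases and flavin monooxygenases lie left of 0 throughout, while the Cyp4, glutathione S-transferase and UDP-glycosyltransferase families lie on both sides.

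Compared by phase, 27 of 40 phase 1 members were lower and 9 higher in IRI, 27 lower and 8 higher in rhabdomyolysis, and 29 lower and 11 higher in cisplatin. Of 23 phase 2 members, 13 were lower and 9 higher in IRI, 14 lower and 8 higher in rhabdomyolysis, and 10 lower and 9 higher in cisplatin. Phase 1 members were thus lower in 67.5%, 67.5% and 72.5% of cases, where 40.1%, 46.5% and 44% of all genes were lower. Phase 2 members were lower in 56.5%, 60.9% and 43.5% of cases and higher in 39.1%, 34.8% and 39.1%, where 40.6%, 48.8% and 47.8% of all genes were higher. The share of phase 2 lower in cisplatin and the share higher in IRI were near the background. The median log2 fold change of phase 1 was -1.42, -1.98 and -1.31 in IRI, rhabdomyolysis and cisplatin, and that of phase 2 was -1.09, -1.13 and -0.13. The medians of the 2 phases thus lay 0.34 apart in IRI, 0.86 in rhabdomyolysis and 1.18 in cisplatin. These distances are descriptions over the members, with no test. They depend on which genes enter: with a minimum mean of 5 CPM the phase 2 median in cisplatin was -0.64, and with no minimum it was 0.051. In IRI the distance between the phases was 0.13 after quantile normalization and 0.85 with no minimum.

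Summed reads also placed phase 1 lower than phase 2, relative to controls, in each injury. Phase 1 members together held 12986 ± 2117 CPM in the controls, 4087 ± 437 in IRI, 2607 ± 352 in rhabdomyolysis and 3845 ± 773 in cisplatin. Phase 2 members held 5414 ± 697, 2619 ± 227, 1573 ± 200 and 1919 ± 327 CPM. Phase 1 was thereby at 31.9%, 19.8% and 29.2% of its matched controls and phase 2 at 47.5%, 29.6% and 36.1%. The 2 shares were closest in cisplatin, where the medians were farthest apart with the minimum mean of 1 CPM but not with 5 CPM (distances of 0.66 in cisplatin and 0.69 in rhabdomyolysis). No injured library reached the lowest control in either sum. The table as a whole also held less of the library size that CPM is scaled to. It held 55.3% to 70.6% in controls, 46.3% to 48.3% in IRI, 42.1% to 45.3% in rhabdomyolysis and 44.4% to 47.3% in cisplatin. The ratio of phase 2 to phase 1 reads was 0.379 to 0.467 in the controls, 0.618 to 0.667 in IRI, 0.587 to 0.636 in rhabdomyolysis and 0.460 to 0.546 in cisplatin. IRI and rhabdomyolysis libraries lay above every control in this ratio. The cisplatin libraries lay above their matched controls 5 to 8 (0.379 to 0.435) and overlapped controls 1 to 4 (0.403 to 0.467). Few genes carry these sums: Cyp4b1, Cyp2j5 and Cyp2e1 made up 56.0% of the control reads of phase 1, and Ugt3a2 and Ugt2b38 made up 57.0% of those of phase 2.

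**Figure D2:**
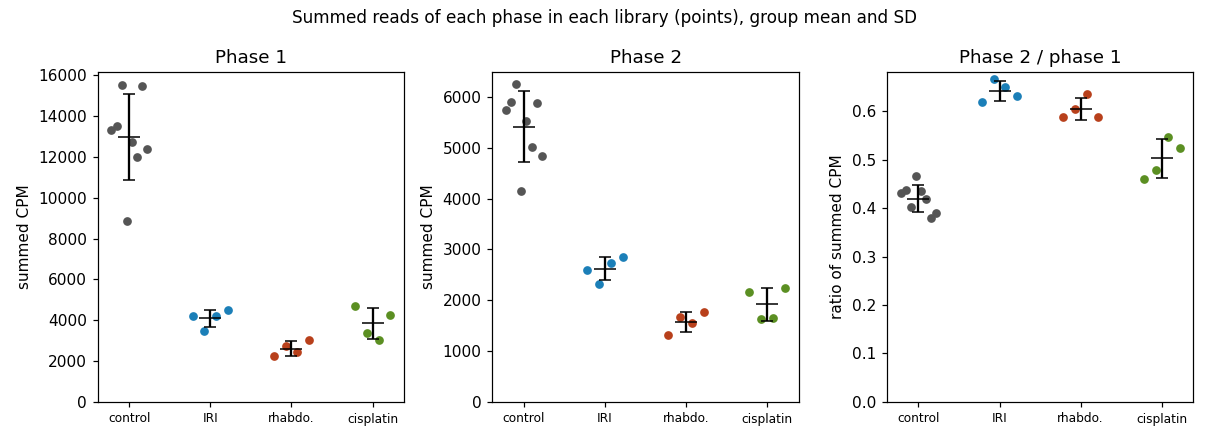
Summed CPM of the 43 phase 1 members, of the 26 phase 2 members, and the ratio of the second to the first, in each library (points) with the group mean and SD (bars). Phase 1 falls from 12986 CPM in controls to 2607 CPM in rhabdomyolysis, and the ratio rises from 0.420 to 0.642 in IRI.

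**Figure D3:**
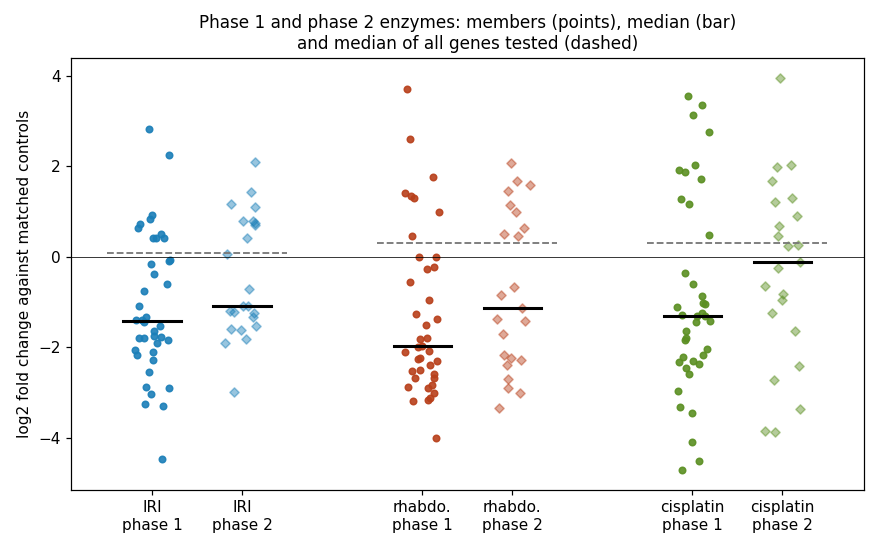
Log2 fold change against matched controls of each tested member (points) by injury and phase, with the median of each set (bar) and the median of all 5672 genes (dashed). The phase 2 median in cisplatin, -0.13, is nearest to that of all genes, 0.30.

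Per kilobase of exon, which allows genes to be compared, Cyp4b1 led in the controls with 1392 CPM per kb, ahead of Cyp2j5 with 992, Cyp2e1 with 836, Ugt2b38 with 640 and Ugt3a2 with 604. After cisplatin the order changed: Ephx1 came first with 290 CPM per kb, then Gstm5 with 273, Cyp4b1 with 244 and Cyp2j5 with 228. In IRI and in rhabdomyolysis Cyp4b1 was again first with 430 and 314 CPM per kb, and Gstp1 came second with 348 and 166.

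The P450 families Cyp1 to Cyp3 hold most drug-oxidizing enzymes. Of their 14 tested members, 11 were lower in IRI and in cisplatin (78.6%) and 10 in rhabdomyolysis (71.4%). Of all genes tested, 40.1%, 44% and 46.5% were lower in IRI, cisplatin and rhabdomyolysis. The 3 that were higher in each injury are Cyp1b1, Cyp2s1 and Cyp3a13. Cyp2j5, an arachidonic acid epoxygenase enriched in kidney, measured 1737 to 2630.2 CPM in the controls (median 2444), 738, 575, 705 and 656 CPM in IRI, 298, 341, 299 and 333 CPM in rhabdomyolysis and 784, 354, 384 and 620.2 CPM in cisplatin. It fell least in IRI and most in rhabdomyolysis, whose 4 libraries lay under all others, with log2 fold changes of -1.80 ± 0.19 for IRI, -2.85 ± 0.19 for rhabdomyolysis and -2.17 ± 0.19 for cisplatin (adjusted p = 3.59e-08, 6.96e-12 and 9.86e-10). Cyp2e1, which oxidizes ethanol and paracetamol, measured 1121 to 2345 CPM in the controls (median 1769), 243, 149, 177 and 335 CPM in IRI, 172, 353, 291 and 314 CPM in rhabdomyolysis and 149.9, 77.1, 94.3 and 99.5 CPM in cisplatin. The 12 injured libraries were all below the controls, and the cisplatin libraries were below all others except IRI 2, which lay just under cisplatin 1, with log2 fold changes of -3.03 ± 0.26 for IRI, -2.69 ± 0.26 for rhabdomyolysis and -4.10 ± 0.26 for cisplatin (adjusted p = 1.28e-09, 2.19e-09 and 4.22e-12). Cyp2d12, of the CYP2D subfamily, measured 42.7 to 125 CPM in the controls (median 98.2), 17.4, 6.79, 13.2 and 10.1 CPM in IRI, 15.8, 20.4, 21.4 and 25.4 CPM in rhabdomyolysis and 3.03, 3.13, 2.79 and 3.20 CPM in cisplatin. Cisplatin left the 4 libraries near 3 CPM, a mean 30.6-fold lower than in the controls, with log2 fold changes of -2.88 ± 0.27 for IRI, -2.10 ± 0.27 for rhabdomyolysis and -4.52 ± 0.27 for cisplatin (adjusted p = 4.77e-09, 1.79e-07 and 1.52e-12).

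Cyp3a13, of the broad drug-oxidizing CYP3A subfamily, rose from the edge of detection. It measured 0.552 to 1.27 CPM in the controls (median 0.827), 4.59, 2.13, 2.76 and 2.17 CPM in IRI, 16.5, 22.1, 21.4 and 24.9 CPM in rhabdomyolysis and 12.1, 15.6, 13.5 and 14.3 CPM in cisplatin. Every injured library exceeded the highest control, and the mean was 30.4-fold higher in rhabdomyolysis and 19.96-fold higher in cisplatin, with log2 fold changes of 0.92 ± 0.18 for IRI, 3.70 ± 0.18 for rhabdomyolysis and 3.13 ± 0.18 for cisplatin (adjusted p = 8.08e-05, 2.89e-14 and 5.46e-13). The controls rest on 4 to 9 reads each. Cyp1b1, an Ahr-inducible enzyme that oxidizes estrogens and polycyclic hydrocarbons, had means of 28.4 ± 8.78 CPM in controls and 50.1 ± 3.90 CPM, 97.3 ± 29.6 CPM and 118 ± 42.1 CPM in IRI, rhabdomyolysis and cisplatin, and all injured libraries lay above the controls. Cyp2s1 rose mainly in cisplatin, with log2 fold changes of 0.51 ± 0.16 for IRI, 0.46 ± 0.16 for rhabdomyolysis and 1.87 ± 0.16 for cisplatin (adjusted p = 0.00739, 0.0114 and 7.37e-10). Its call in rhabdomyolysis was lost without control 7 (log2 0.32, adjusted p = 0.0660) and without rhabdomyolysis 4 (0.33, adjusted p = 0.0605).

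The 3 Cyp2d members, neighbours on chromosome 15, parted after injury. Cyp2d9 was lowest in IRI, at 12.1 to 23.9 CPM against 86.2 to 267 CPM in controls. In cisplatin it stood at 43.01 to 96.4 CPM, where 1 library lay above control 4 and all lay below the matched controls 5 to 8. Cyp2d12 was instead lowest in cisplatin. Cyp2d26 was least reduced in rhabdomyolysis, with log2 fold changes of -3.30, -2.08 and -3.46 in IRI, rhabdomyolysis and cisplatin. Cyp2f2 was lower in IRI (-1.80 ± 0.22 (adjusted p = 2.95e-07)) and cisplatin (-1.29 ± 0.22 (adjusted p = 1.58e-05)), while in rhabdomyolysis its value was -0.01 ± 0.22 (adjusted p = 0.949). The other falling members, Cyp2a4, Cyp2c44, Cyp2c69, Cyp2j11 and Cyp2j13, were called lower in all 3 injuries, with log2 fold changes between -3.20 (Cyp2j13 in rhabdomyolysis) and -1.24 (Cyp2a4 in cisplatin). Cyp2a4 and Cyp2c69 have transcripts over 95% identical to other genes, so their reads may be shared with those copies. Cyp2b10, untested for its low level, held 0 to 5 reads in controls, 0 to 3 reads in IRI, 15 to 22 reads in rhabdomyolysis and 9 to 20 reads in cisplatin. Its mean level was 1.80 CPM in rhabdomyolysis and 1.66 CPM in cisplatin against 0.193 CPM in the controls, whose highest library (0.704 CPM) lay below all 8 libraries of those 2 injuries.

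**Figure D4:**
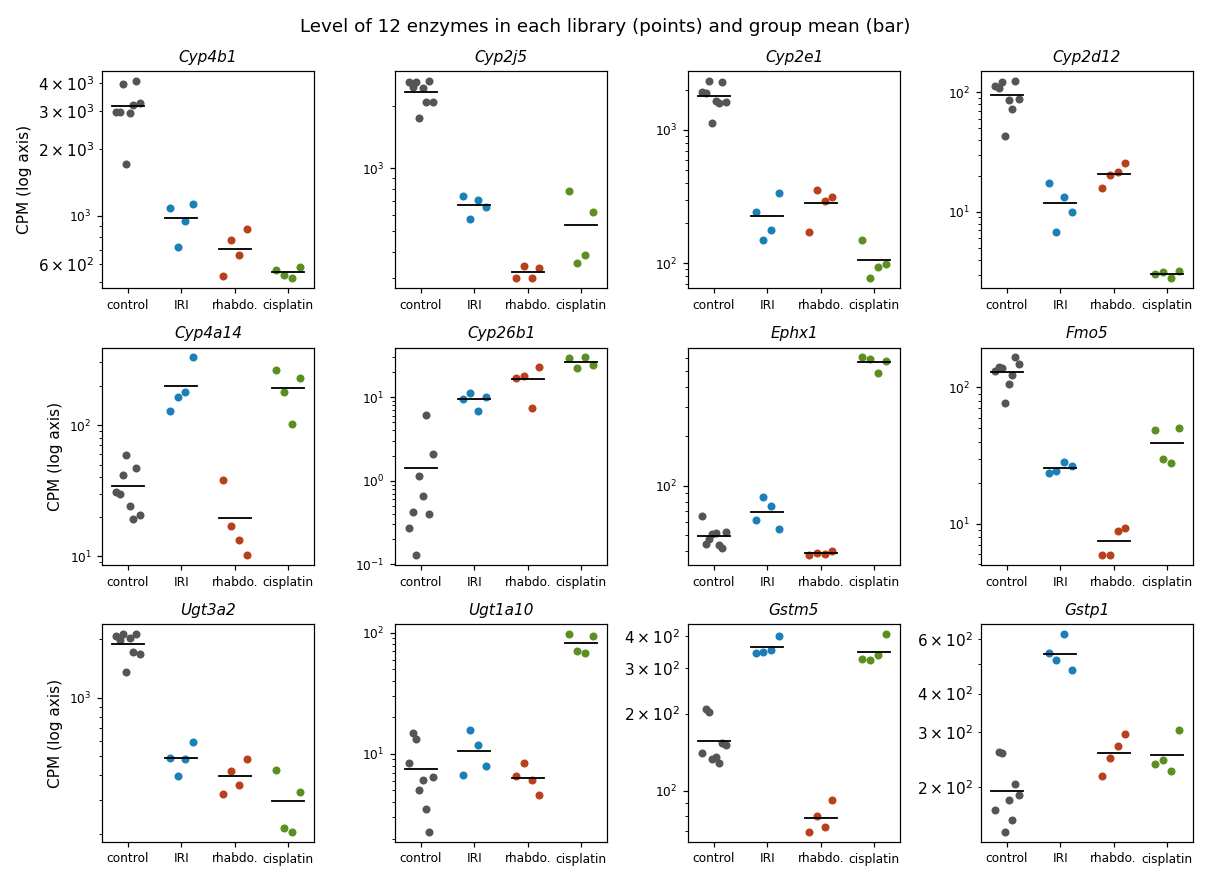
CPM (log axis) of 12 enzymes in each library (points) with the group mean (bar), for 8 controls and 4 libraries per injury. Cyp4b1, Cyp2j5, Cyp2e1, Cyp2d12, Fmo5 and Ugt3a2 lie below the controls in every injury, Ephx1 and Ugt1a10 rise in cisplatin, and Gstm5 lies above the controls in IRI and cisplatin and below them in rhabdomyolysis.

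The Cyp4 family hydroxylates fatty acids. Of 9 tested members, 3 rose and 3 fell in IRI, 3 rose and 4 fell in rhabdomyolysis, and 5 rose and 4 fell in cisplatin. All genes tested moved both ways too (40.6% higher and 40.1% lower in IRI, 48.8% and 46.5% in rhabdomyolysis, 47.8% and 44% in cisplatin), so a mixture of directions is the background. Cyp4b1, which oxidizes fatty acids and activates several protoxins, measured 1725 to 4112 CPM in the controls (median 3079.7), 1086, 716, 943 and 1134 CPM in IRI, 531, 773, 660.3 and 868 CPM in rhabdomyolysis and 565, 535, 518 and 584 CPM in cisplatin. The injured libraries lay below the lowest control throughout, with log2 fold changes of -1.54 ± 0.20 for IRI, -2.26 ± 0.20 for rhabdomyolysis and -2.60 ± 0.20 for cisplatin (adjusted p = 6.27e-07, 5.91e-10 and 1.10e-10). Cyp4a14, a fatty acid hydroxylase known as a target of PPAR alpha, measured 19.4 to 58.97 CPM in the controls (median 30.3), 127, 163, 179 and 327 CPM in IRI, 37.8, 16.9, 13.2 and 10.2 CPM in rhabdomyolysis and 261, 179, 102 and 227 CPM in cisplatin. IRI and cisplatin libraries lay above all controls and rhabdomyolysis libraries overlapped them, 3 of 4 below the lowest, with log2 fold changes of 2.24 ± 0.36 for IRI, -0.56 ± 0.36 for rhabdomyolysis and 2.75 ± 0.36 for cisplatin (adjusted p = 9.87e-06, 0.134 and 3.66e-07). The direct difference between rhabdomyolysis and cisplatin was -3.32 ± 0.36 (adjusted p = 9.20e-08).

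Cyp4a12a, a neighbour of Cyp4a14 on chromosome 4 that hydroxylates arachidonic acid, behaved in another way. It measured 63.8 to 129 CPM in the controls (median 89.7), 95.5, 56.5, 94.03 and 53.99 CPM in IRI, 9.17, 23.9, 8.17 and 12.5 CPM in rhabdomyolysis and 13.5, 9.59, 6.59 and 10.1 CPM in cisplatin. The IRI libraries overlapped the controls and both other injuries lay below them, with log2 fold changes of -0.07 ± 0.26 for IRI, -3.01 ± 0.26 for rhabdomyolysis and -3.33 ± 0.26 for cisplatin (adjusted p = 0.797, 4.75e-10 and 1.66e-10). The IRI effect differed from the rhabdomyolysis effect by 2.94 ± 0.37 (adjusted p = 2.04e-06) and from the cisplatin effect by 3.26 ± 0.37 (adjusted p = 9.55e-07). Its transcript is over 98% identical to that of Cyp4a12b, so the 2 genes may share reads. Cyp4f16 and Cyp4v3 rose in all 3 injuries, Cyp4f18 in rhabdomyolysis and cisplatin, and Cyp4f17 in cisplatin only, from 3.74 to 5.74 CPM in controls to 17.3 to 22.5 CPM. The Cyp4f17 difference between rhabdomyolysis and cisplatin was -1.74 ± 0.14 (adjusted p = 1.44e-09), and the IRI effect differed from the cisplatin effect by -1.81 ± 0.20 (adjusted p = 6.51e-07). Cyp4f14 and Cyp4f13 fell in all 3. The call of Cyp4f13 in IRI (-0.39 ± 0.14 (adjusted p = 0.0155)) was lost without control 2 (-0.28) or IRI 2 (-0.33), and that in cisplatin without control 7 (-0.29).

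The 6 P450 members of other families act on sterols, retinoids or unknown substrates. Cyp51, the lanosterol demethylase of cholesterol synthesis, measured 169.6 to 289 CPM in the controls (median 242), 58.5, 55.4, 72.6 and 54.6 CPM in IRI, 65.5, 66.8, 68.2 and 65.9 CPM in rhabdomyolysis and 61.5, 41.8, 45.9 and 52.9 CPM in cisplatin. Its mean was 3.85-fold, 3.60-fold and 4.75-fold lower, and no injured library reached the controls, with log2 fold changes of -1.92 ± 0.15 for IRI, -1.82 ± 0.15 for rhabdomyolysis and -2.22 ± 0.15 for cisplatin (adjusted p = 2.28e-10, 1.27e-10 and 8.56e-12). Cyp7b1, an oxysterol hydroxylase, measured 112 to 239.8 CPM in the controls (median 146), 4.59, 4.93, 7.23 and 6.18 CPM in IRI, 14.7, 19.2, 24.5 and 25.7 CPM in rhabdomyolysis and 95.8, 57.5, 38.1 and 75.7 CPM in cisplatin. The 3 injuries did not overlap one another or the controls, in the order IRI, rhabdomyolysis, cisplatin and control from low to high, with log2 fold changes of -4.48 ± 0.26 for IRI, -2.88 ± 0.26 for rhabdomyolysis and -1.31 ± 0.26 for cisplatin (adjusted p = 2.77e-12, 5.98e-10 and 7.06e-05). IRI lowered its mean 26.4-fold and cisplatin 2.47-fold, and the 2 effects differed by -3.17 ± 0.36 (adjusted p = 9.06e-07).

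Cyp26b1, which breaks down retinoic acid, had the highest mean of the 3 log2 fold changes among the members. It measured 0.129 to 6.09 CPM in the controls (median 0.541), 9.57, 11.2, 6.89 and 10.1 CPM in IRI, 16.8, 17.8, 7.41 and 23.2 CPM in rhabdomyolysis and 29.2, 22.3, 29.7 and 24.2 CPM in cisplatin. Control 6 stood at 6.09 CPM, well above the other controls, whose highest was 2.07 CPM, and every injured library lay above control 6. Cyp26b1 had log2 fold changes of 2.83 ± 0.37 for IRI, 2.60 ± 0.37 for rhabdomyolysis and 3.35 ± 0.37 for cisplatin (adjusted p = 6.30e-07, 8.25e-07 and 3.16e-08). Without control 6 the rhabdomyolysis value was 3.07 and the cisplatin value 3.82. Cyp27a1, a mitochondrial sterol hydroxylase, fell in all 3 injuries (-1.65, -1.97 and -1.04) and Cyp39a1 in IRI and cisplatin (-0.76 and -0.88). Cyp20a1 rose in all 3 (0.42, 0.99 and 0.49).

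Carboxylesterases hydrolyse ester and amide drugs. All 5 members were lower in all 3 injuries, where 36.9% of all genes were. Their median log2 fold changes were -1.83, -2.52 and -2.47, and no injured library overlapped the controls. Ces1f measured 457 to 963 CPM in the controls (median 825), 307, 306, 374 and 319 CPM in IRI, 99.9, 151, 126 and 154 CPM in rhabdomyolysis and 297, 221, 170.0 and 275 CPM in cisplatin. The IRI libraries kept more than the other injured libraries, with log2 fold changes of -1.09 ± 0.19 for IRI, -2.69 ± 0.19 for rhabdomyolysis and -1.85 ± 0.19 for cisplatin (adjusted p = 1.96e-05, 9.74e-12 and 7.33e-09). Ces1d measured 262 to 489 CPM in the controls (median 407), 67.7, 53.5, 95.3 and 83.7 CPM in IRI, 83.2, 79.00, 59.7 and 107 CPM in rhabdomyolysis and 88.01, 35.4, 38.2 and 69.9 CPM in cisplatin. Here the 3 injuries overlapped one another, with log2 fold changes of -2.29 ± 0.24 for IRI, -2.40 ± 0.24 for rhabdomyolysis and -2.97 ± 0.24 for cisplatin (adjusted p = 3.26e-08, 4.76e-09 and 2.71e-10). Ces1e measured 111 to 160.2 CPM in the controls (median 139.9), 17.96, 13.1, 19.7 and 19.8 CPM in IRI, 24.1, 22.95, 17.9 and 27.6 CPM in rhabdomyolysis and 6.07, 2.42, 4.69 and 5.52 CPM in cisplatin. Its cisplatin libraries lay below all others, 30.7-fold under the matched controls, with log2 fold changes of -2.90 ± 0.19 for IRI, -2.59 ± 0.19 for rhabdomyolysis and -4.72 ± 0.19 for cisplatin (adjusted p = 1.54e-11, 1.91e-11 and 1.66e-15). Ces1g and Ces2h fell from means of 37.9 ± 13.02 CPM and 2.77 ± 0.699 CPM to at most 9.32 ± 2.20 CPM and 0.362 ± 0.244 CPM, their IRI means.

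The flavin monooxygenases, which oxidize nitrogen and sulfur atoms in drugs, fell deepest in rhabdomyolysis. All 4 were lower in rhabdomyolysis and cisplatin and 3 in IRI (46.5%, 44% and 40.1% of all genes). All 4 were lower in rhabdomyolysis than in cisplatin (32.7% of all genes). Fmo1 measured 614 to 1069.8 CPM in the controls (median 727), 266, 323, 367 and 296 CPM in IRI, 76.8, 90.04, 72.02 and 94.6 CPM in rhabdomyolysis and 427, 222, 209 and 385 CPM in cisplatin. The rhabdomyolysis libraries lay below all others, with log2 fold changes of -1.41 ± 0.20 for IRI, -3.13 ± 0.20 for rhabdomyolysis and -1.30 ± 0.20 for cisplatin (adjusted p = 2.29e-06, 3.42e-12 and 3.91e-06). Fmo2 measured 482 to 602 CPM in the controls (median 539), 124, 107, 137 and 159 CPM in IRI, 44.1, 63.5, 41.6 and 88.2 CPM in rhabdomyolysis and 125, 80.7, 72.8 and 125 CPM in cisplatin. It fell in each injury, with log2 fold changes of -2.12 ± 0.20 for IRI, -3.16 ± 0.20 for rhabdomyolysis and -2.38 ± 0.20 for cisplatin (adjusted p = 3.79e-09, 1.62e-12 and 2.74e-10). Fmo5 measured 77.4 to 166 CPM in the controls (median 136), 23.6, 24.2, 28.5 and 26.3 CPM in IRI, 5.86, 5.91, 8.84 and 9.31 CPM in rhabdomyolysis and 49.03, 29.8, 27.6 and 49.97 CPM in cisplatin. Rhabdomyolysis left it 18.1-fold below its controls where cisplatin left it 3.46-fold below, with log2 fold changes of -2.18 ± 0.21 for IRI, -4.01 ± 0.21 for rhabdomyolysis and -1.80 ± 0.21 for cisplatin (adjusted p = 8.77e-09, 1.40e-13 and 8.56e-08). The direct differences between rhabdomyolysis and cisplatin were -1.82 ± 0.20 (adjusted p = 1.32e-07) for Fmo1, -0.78 ± 0.20 (adjusted p = 0.00196) for Fmo2 and -2.22 ± 0.21 (adjusted p = 1.51e-08) for Fmo5. Fmo4 was the member not called in IRI, at 14.3 to 20.02 CPM against 15.5 to 22.2 CPM in controls, and fell to 2.57 to 4.88 CPM in rhabdomyolysis.

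The 2 tested epoxide hydrolases separated. Ephx1, the microsomal enzyme that hydrolyses epoxides of drugs, measured 41.7 to 65.3 CPM in the controls (median 49.1), 62.02, 85.1, 75.7 and 54.3 CPM in IRI, 37.8, 39.2, 38.4 and 40.3 CPM in rhabdomyolysis and 603, 594, 486 and 577 CPM in cisplatin. The cisplatin libraries stood far above all others, the IRI libraries overlapped the controls, and the rhabdomyolysis libraries lay just under them. Ephx1 thus had log2 fold changes of 0.40 ± 0.13 for IRI, -0.26 ± 0.13 for rhabdomyolysis and 3.56 ± 0.13 for cisplatin (adjusted p = 0.00964, 0.0653 and 8.65e-16). Its rise in IRI was lost without IRI 2 (0.30, adjusted p = 0.0529). The cisplatin mean was 11.98-fold that of the controls, and the difference between rhabdomyolysis and cisplatin was -3.82 ± 0.13 (adjusted p = 1.63e-15). Ephx2, the soluble enzyme that clears epoxides of arachidonic acid, measured 423 to 722 CPM in the controls (median 528), 325, 365, 356 and 441 CPM in IRI, 109, 133, 126 and 180.4 CPM in rhabdomyolysis and 209.5, 180.4, 176 and 249 CPM in cisplatin. The rhabdomyolysis libraries were lowest but for 1 that overlapped cisplatin, with log2 fold changes of -0.61 ± 0.18 for IRI, -2.003 ± 0.18 for rhabdomyolysis and -1.43 ± 0.18 for cisplatin (adjusted p = 0.00324, 4.69e-10 and 1.61e-07). Under quantile normalization the IRI value was -0.04 (adjusted p = 0.776). Ephx3 stood at 0 to 6 reads in controls and 18 to 34 reads in cisplatin and was not tested. Aox1, aldehyde oxidase, was also near the limit of detection and not tested, and measured 0.135 to 0.863 CPM in the controls (median 0.279), 1.97, 1.86, 1.03 and 1.26 CPM in IRI, 0.662, 0.788, 2.00 and 0.795 CPM in rhabdomyolysis and 1.52, 1.11, 0.559 and 0.872 CPM in cisplatin. Its IRI libraries lay above all controls. Several of the other injured libraries lay below control 4, and none overlapped the matched controls 5 to 8.

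Promoter sequences are shown for 4 members: Ces1e and Cyp26b1, the members with the lowest and highest mean log2 fold change over the 3 injuries, and Ephx1 and Gstm5, whose levels part the injuries and which were chosen after their values were seen. Each is the 250 bases before the RefSeq transcript start (GRCm38.p6), 5′ to 3′ on the gene's strand, with motif matches in capitals. The RefSeq gene spans of Ces1e and Cyp26b1 reach past that start, to 93229631 and 84593908, so the end of each stretch lies within the span. The positions are chr8:93229620-93229869 (minus strand) for Ces1e, chr6:84593811-84594060 (minus strand) for Cyp26b1, chr1:181017570-181017819 (minus strand) for Ephx1 and chr3:107895604-107895853 (plus strand) for Gstm5.
Ces1e: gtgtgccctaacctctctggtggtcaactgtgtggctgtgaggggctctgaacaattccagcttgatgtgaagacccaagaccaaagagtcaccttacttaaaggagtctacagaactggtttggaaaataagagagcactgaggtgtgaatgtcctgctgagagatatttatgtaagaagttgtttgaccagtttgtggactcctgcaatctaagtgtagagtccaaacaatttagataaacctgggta
Cyp26b1: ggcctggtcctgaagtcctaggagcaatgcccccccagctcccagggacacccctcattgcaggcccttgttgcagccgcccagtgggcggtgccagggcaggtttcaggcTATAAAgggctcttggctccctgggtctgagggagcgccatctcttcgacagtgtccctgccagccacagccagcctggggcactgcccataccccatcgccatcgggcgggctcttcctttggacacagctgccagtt
Ephx1: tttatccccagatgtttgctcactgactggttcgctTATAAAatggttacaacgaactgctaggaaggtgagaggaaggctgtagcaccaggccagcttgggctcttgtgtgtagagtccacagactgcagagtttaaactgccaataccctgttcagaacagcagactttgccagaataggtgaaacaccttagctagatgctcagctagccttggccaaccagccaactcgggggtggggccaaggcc
Gstm5: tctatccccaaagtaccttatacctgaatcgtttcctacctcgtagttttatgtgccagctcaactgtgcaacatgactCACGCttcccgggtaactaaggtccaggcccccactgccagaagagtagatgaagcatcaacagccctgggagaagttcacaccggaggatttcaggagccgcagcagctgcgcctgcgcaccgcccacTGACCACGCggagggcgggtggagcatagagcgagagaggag
Capitals mark the letters TATAAA in Cyp26b1 and Ephx1, whose first base stands at -139 and -214 from the transcript start, and TGACNNNGC (antioxidant response element core) and GCGTG (core of the Ahr and Arnt site) in Gstm5, where 1 GCGTG match lies on the minus strand within the TGACNNNGC match and another stands apart. The Ces1e stretch holds none of the motifs named here. The search covered both strands of windows from 250 bases before to 50 after the start, of which 55 members had 67. TGACNNNGC was in 5.97% of members' windows and 12.4% of all 32851 windows, and GCGTG in 25.4% and 32.4%. CAAAGTCCA (HNF4 site) was in 1.49% and 0.475%, and TATAAA in 19.4% and 13.6%. A match is a run of letters and no measured binding.

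UDP-glycosyltransferases attach sugars such as glucuronic acid. Against the same background of both directions, of 9 tested members 5 fell in each injury, 3 rose in IRI and in rhabdomyolysis, and 4 rose in cisplatin. Ugt3a2 measured 1350.1 to 2109 CPM in the controls (median 1989.8), 491, 398, 486 and 593 CPM in IRI, 321, 423, 359 and 487 CPM in rhabdomyolysis and 428, 216, 205 and 329 CPM in cisplatin. The injured libraries lay below every control and overlapped one another, with log2 fold changes of -1.92 ± 0.20 for IRI, -2.25 ± 0.20 for rhabdomyolysis and -2.73 ± 0.20 for cisplatin (adjusted p = 2.66e-08, 6.31e-10 and 4.91e-11). Ugt2b38, of the steroid- and drug-conjugating UGT2B subfamily, measured 906 to 1406 CPM in the controls (median 1277), 422, 276, 373 and 494 CPM in IRI, 192, 337, 268 and 223 CPM in rhabdomyolysis and 132, 41.6, 73.2 and 113 CPM in cisplatin. Cisplatin libraries were lowest, with log2 fold changes of -1.62 ± 0.26 for IRI, -2.29 ± 0.26 for rhabdomyolysis and -3.88 ± 0.26 for cisplatin (adjusted p = 1.05e-05, 3.11e-08 and 1.15e-11). Its transcript is over 95% identical to that of Ugt2b5, so reads may be shared. Ugt2b37, its neighbour on chromosome 5, measured 34.7 to 117 CPM in the controls (median 84.3), 22.8, 23.3, 24.8 and 28.4 CPM in IRI, 21.1, 39.9, 40.8 and 28.8 CPM in rhabdomyolysis and 5.95, 3.13, 5.81 and 5.52 CPM in cisplatin. It fell 16.97-fold in cisplatin and 2.65-fold in rhabdomyolysis, with log2 fold changes of -1.54 ± 0.27 for IRI, -1.42 ± 0.27 for rhabdomyolysis and -3.86 ± 0.27 for cisplatin (adjusted p = 2.39e-05, 3.27e-05 and 1.57e-11). In rhabdomyolysis 2 libraries lay above control 4, and none overlapped the matched controls 5 to 8. Ugt2b34, at the same locus, rose in all 3 injuries, from 43.3 to 68.9 CPM to 76.2 to 109 CPM, 81.02 to 135 CPM and 72.1 to 107 CPM.

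Ugt1a10 was high in cisplatin alone. It measured 2.27 to 14.9 CPM in the controls (median 6.29), 6.69, 15.8, 11.9 and 8.01 CPM in IRI, 6.52, 8.37, 6.08 and 4.54 CPM in rhabdomyolysis and 97.00, 70.1, 68.5 and 93.6 CPM in cisplatin. The 4 cisplatin libraries stood clear of all others, 17.9-fold above controls 5 to 8, with log2 fold changes of 0.06 ± 0.30 for IRI, 0.45 ± 0.30 for rhabdomyolysis and 3.96 ± 0.30 for cisplatin (adjusted p = 0.858, 0.146 and 6.74e-11). The cisplatin effect differed from that of IRI, by -3.90 ± 0.42 (adjusted p = 3.75e-07) for IRI minus cisplatin, and cisplatin differed from rhabdomyolysis by -3.50 ± 0.30 (adjusted p = 2.33e-09) for rhabdomyolysis minus cisplatin. Controls 1 to 4 lay log2 1.01 ± 0.30 above controls 5 to 8 (adjusted p = 0.442), at means of 10.4 and 4.60 CPM. That gap is part of the IRI minus cisplatin value. Ugt1a1, which conjugates bilirubin, rose in all 3 injuries (1.16, 1.14 and 2.02). Ugt1a9 had 0 to 3 reads in controls and 22 to 34 reads, 20 to 60 reads and 14 to 32 reads in the injuries. Controls 1 to 4 were all at 0, and against a floor of 3 reads per library the IRI mean was at least 8.08-fold higher. Of controls 5 to 8, control 7 alone held reads (0.401 CPM), and the means were 3.80 CPM in rhabdomyolysis and 2.58 CPM in cisplatin. No control reached 1 CPM, so Ugt1a9 met the table's level (above 1 CPM in at least 4 libraries) only through injured libraries. Its rise in each injury is thus not independent of how it entered the table. The Ugt1a genes share their downstream exons, with transcripts up to 100% identical over more than 50% of their length, so the split of reads among them is uncertain. Ugt3a1 and Ugt8a, the ceramide enzyme, were lower in all 3 injuries, at -2.996, -2.91 and -3.36 and -1.09, -2.70 and -1.64. Ugt2a3 was not tested and held 3 to 11 reads in controls and 0 to 2 reads in cisplatin.

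Glutathione S-transferases couple glutathione to reactive compounds. Against the background of both directions, of 12 members 7 fell and 5 rose in IRI, 8 fell and 4 rose in rhabdomyolysis, and 4 fell, 4 rose and 4 were not called in cisplatin. Gstz1, which isomerizes maleylacetoacetate in tyrosine breakdown, measured 353 to 573 CPM in the controls (median 462), 167, 161, 196 and 219 CPM in IRI, 50.01, 56.5, 52.4 and 60.9 CPM in rhabdomyolysis and 269, 205, 184 and 285 CPM in cisplatin. Rhabdomyolysis libraries lay far below the rest, with log2 fold changes of -1.34 ± 0.15 for IRI, -3.01 ± 0.15 for rhabdomyolysis and -0.95 ± 0.15 for cisplatin (adjusted p = 8.37e-08, 6.37e-14 and 5.29e-06). Gstp1, the pi-class enzyme, measured 143 to 258 CPM in the controls (median 185), 542, 515, 621 and 477 CPM in IRI, 217, 247, 271 and 295 CPM in rhabdomyolysis and 237, 244, 225 and 305 CPM in cisplatin. The IRI libraries lay above all others, with log2 fold changes of 1.42 ± 0.16 for IRI, 0.49 ± 0.16 for rhabdomyolysis and 0.47 ± 0.16 for cisplatin (adjusted p = 9.92e-08, 0.00685 and 0.0105). While 2 rhabdomyolysis and 3 cisplatin libraries overlapped controls 1 to 4, none overlapped the matched controls 5 to 8. The IRI effect exceeded that of rhabdomyolysis by 0.93 ± 0.23 (adjusted p = 0.00209) and that of cisplatin by 0.95 ± 0.23 (adjusted p = 0.00317). Its transcript is over 97% identical to those of Gstp2 and Gstp-ps, so these values may hold reads of both.

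The mu-class genes Gstm2, Gstm5, Gstm6 and Gstm7 lie within one stretch of chromosome 3 and took different courses. Gstm5 measured 128 to 209 CPM in the controls (median 146), 345, 348, 352 and 402 CPM in IRI, 69.3, 80.2, 72.7 and 92.5 CPM in rhabdomyolysis and 325, 324, 338 and 406 CPM in cisplatin. IRI and cisplatin libraries lay above all controls and rhabdomyolysis libraries below them, with log2 fold changes of 1.10 ± 0.14 for IRI, -0.85 ± 0.14 for rhabdomyolysis and 1.29 ± 0.14 for cisplatin (adjusted p = 3.33e-07, 4.95e-06 and 1.89e-08). The rhabdomyolysis level was below that of cisplatin by -2.13 ± 0.14 (adjusted p = 3.26e-11), and the IRI effect exceeded the rhabdomyolysis effect by 1.95 ± 0.19 (adjusted p = 9.14e-08). Gstm6 measured 0.414 to 3.10 CPM in the controls (median 1.10), 2.75, 4.40, 3.56 and 3.09 CPM in IRI, 3.69, 4.63, 4.56 and 4.88 CPM in rhabdomyolysis and 4.67, 7.07, 6.81 and 6.20 CPM in cisplatin. It was low in controls (3 to 22 reads) and rose, with log2 fold changes of 0.79 ± 0.22 for IRI, 1.59 ± 0.22 for rhabdomyolysis and 1.98 ± 0.22 for cisplatin (adjusted p = 0.00262, 5.34e-07 and 3.21e-08). Gstm7 fell in IRI and rhabdomyolysis (-1.10 and -1.71), and in cisplatin it was at 7.26 to 12.6 CPM against 6.74 to 14.4 CPM in controls (0.23 ± 0.20 (adjusted p = 0.266)). Gstm2 likewise fell in IRI and rhabdomyolysis (-1.24 and -0.68), with -0.13 ± 0.14 (adjusted p = 0.387) in cisplatin.

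Among the other glutathione S-transferases, Gstk1, Gstt2 and Gstt3 fell in all 3 injuries, and Gstt1 fell in IRI and rhabdomyolysis, with -0.26 ± 0.13 (adjusted p = 0.0549) in cisplatin. Each of these 4 was lower in rhabdomyolysis than in cisplatin, by log2 -1.15, -1.34, -0.48 and -1.13. Gsta4, which conjugates the lipid peroxidation product hydroxynonenal, rose most in rhabdomyolysis, to 91.1 to 120.0 CPM from 29.8 to 54.8 CPM, with log2 fold changes of 0.41 ± 0.18 for IRI, 1.67 ± 0.18 for rhabdomyolysis and 0.68 ± 0.18 for cisplatin (adjusted p = 0.0348, 8.26e-09 and 0.00103). Its call in IRI was lost without any one of control 1, control 4, IRI 1, IRI 2 or IRI 3 (log2 0.26 to 0.42). Gstcd rose in IRI and rhabdomyolysis (0.74 and 0.63).

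Sulfotransferases were few. Sult1c2 measured 118 to 177 CPM in the controls (median 133), 59.8, 42.1, 54.1 and 44.7 CPM in IRI, 8.13, 12.7, 12.7 and 12.8 CPM in rhabdomyolysis and 24.98, 16.1, 21.3 and 30.4 CPM in cisplatin. No 2 of the 4 groups overlapped, in the order rhabdomyolysis, cisplatin, IRI and control from low to high, with log2 fold changes of -1.60 ± 0.17 for IRI, -3.34 ± 0.17 for rhabdomyolysis and -2.41 ± 0.17 for cisplatin (adjusted p = 3.23e-08, 7.74e-14 and 2.37e-11). Sult2b1, which sulfates cholesterol, measured 0.160 to 0.659 CPM in the controls (median 0.536), 1.44, 2.00, 1.95 and 1.14 CPM in IRI, 3.21, 3.15, 2.19 and 3.52 CPM in rhabdomyolysis and 2.33, 2.32, 2.90 and 2.03 CPM in cisplatin. Every injured library lay above the controls, which held 1 to 4 reads each, with log2 fold changes of 0.79 ± 0.16 for IRI, 1.44 ± 0.16 for rhabdomyolysis and 1.21 ± 0.16 for cisplatin (adjusted p = 1.90e-04, 2.87e-08 and 6.27e-07). No control reached 1 CPM, so Sult2b1 met the table's level (above 1 CPM in at least 4 libraries) only through injured libraries. Its rise and these p-values are thus not independent of how it entered the table. Sult5a1 was not tested and measured 0.387 to 1.07 CPM in the controls (median 0.652), 1.18, 0.932, 0.689 and 1.26 CPM in IRI, 1.23, 0.591, 0.760 and 0.568 CPM in rhabdomyolysis and 2.22, 1.11, 1.90 and 1.16 CPM in cisplatin. Of its injured libraries those of cisplatin lay above all controls. Sult1e1, the estrogen sulfotransferase, had 0 reads in all 8 controls and 2 to 35 reads in IRI, 2 to 42 reads in rhabdomyolysis and 2 to 6 reads in cisplatin. The highest counts came from 1 library each, IRI 4 and rhabdomyolysis 4.

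Rhabdomyolysis and cisplatin were compared directly within 1 range of library identifiers, although their times differ (24 h and 72 h), so injury and time cannot be told apart. Of 63 members, 46 were called, 15 higher in rhabdomyolysis and 31 lower, where 54.1% of all genes were called, 21.4% higher and 32.7% lower. The higher share of all genes called was 39.6% on the deposited scale, 47.6% after scaling to the 75th percentile and 51.8% after quantile normalization. In phase 1 the count was 10 higher and 19 lower of 40, and in phase 2 it was 5 higher and 12 lower of 23. Higher in rhabdomyolysis stood Ugt2b37 (2.45 ± 0.27 (adjusted p = 9.32e-08)), Cyp2d12 (2.41 ± 0.27 (adjusted p = 1.44e-07)) and Ces1e (2.12 ± 0.19 (adjusted p = 4.32e-09)). Lowest in rhabdomyolysis relative to cisplatin stood Ephx1, Ugt1a10 and Cyp4a14, with the values given above.

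**Figure D5:**
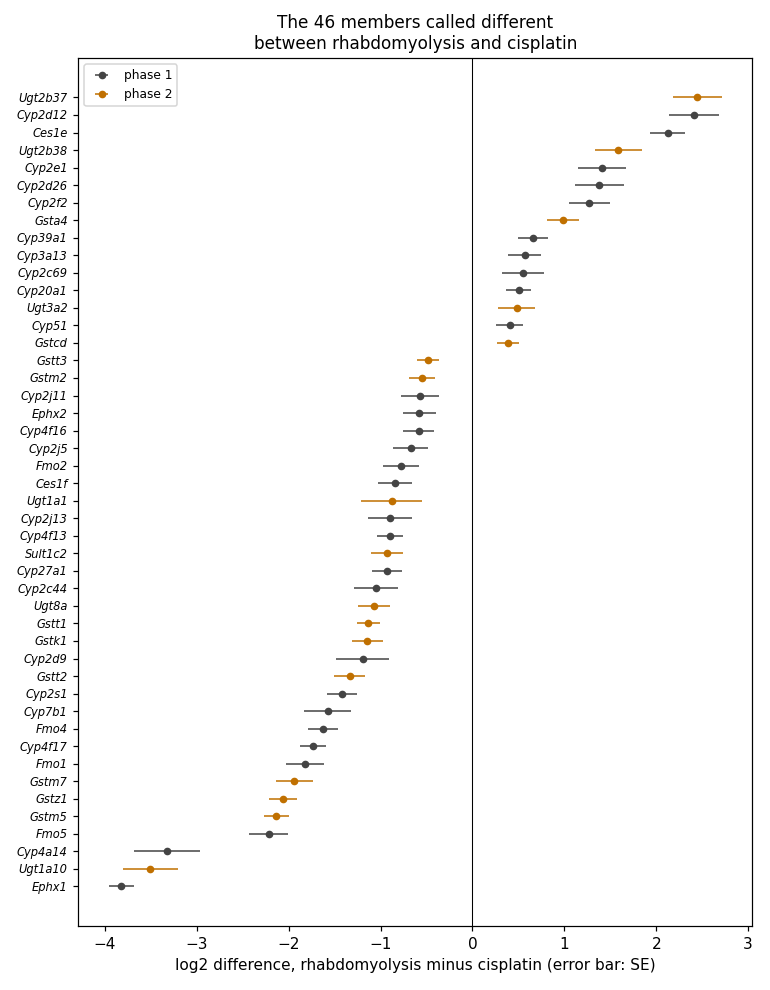
Log2 difference, rhabdomyolysis minus cisplatin (x axis), with its standard error, for the 46 members called different, phase 1 in grey and phase 2 in orange. Ugt2b37 is at the top with 2.45 and Ephx1 at the bottom with -3.82.

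The effect of IRI, at the same 24 h, was set against that of rhabdomyolysis, each on its own controls. Of 63 members, 33 were called, 20 with a higher and 13 with a lower value in IRI, where 52% of all genes were called, 28.6% higher and 23.4% lower. The members' share, 52.4%, was that of the background. Cyp4a12a (2.94), Cyp4a14 (2.80), Fmo4 (2.08) and Gstm5 (1.95) were higher in IRI, and Cyp3a13 (-2.79), Cyp2f2 (-1.79) and Cyp7b1 (-1.60) lower. Without rhabdomyolysis 1 the phase 1 members with a lower value in IRI numbered 5 in place of 9, and without IRI 4 or rhabdomyolysis 4 those of phase 2 numbered 1 or 2 in place of 4. Against cisplatin, 28 of 63 members were called, 14 each way, where 30.3% of all genes were called, 13.5% higher and 16.8% lower. The higher share of all genes called was 44.5% here and 55.3% after quantile normalization. Cyp4a12a (3.26), Ugt2b37 (2.33) and Ugt2b38 (2.26) were higher in IRI, and Ugt1a10 (-3.90), Cyp7b1 (-3.17) and Ephx1 (-3.15) lower. Without control 4, control 7, cisplatin 2 or cisplatin 3, phase 1 members with a higher value in IRI numbered 5 in place of 8.

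Neighbouring genes can be read together. With gaps of up to 500000 bases (RefSeq gene positions on GRCm38), 41 members fall into 12 groups. The 4 Ces1 genes on chromosome 8 (positions 93166072 to 93337209), the Cyp2j genes on chromosome 4 (96042660 to 96664171) and, on chromosome 15, the Cyp2d genes (82452377 to 82794452) and Ugt3a1 with Ugt3a2 (9279822 to 9370955) were lower in every injury. Groups on chromosome 5 (Ugt2b34, Ugt2b37 and Ugt2b38, within 86889770 to 87591611), chromosome 17 (4 tested Cyp4f genes, within 32183770 to 32947415), chromosome 4 (Cyp4a12a, Cyp4a14 and Cyp4b1, 115299046 to 115647721), chromosome 3 (the 4 Gstm genes, 107895854 to 107986420) and chromosome 7 (Cyp2a4 and Cyp2s1, within 25802469 to 26315088) held members that rose beside members that fell.

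Other genes of the pathway came from lists chosen by function. Their counts stand against all genes tested, of which 40.6% were higher and 40.1% lower in IRI, 48.8% and 46.5% in rhabdomyolysis, and 47.8% and 44% in cisplatin. The regulators reported here are transcription factors. Hnf4a, a main regulator of proximal tubule and drug metabolism genes, had mean levels of 1212, 850.0, 123 and 359 CPM in controls, IRI, rhabdomyolysis and cisplatin, with log2 fold changes of -0.48 ± 0.18 for IRI, -3.34 ± 0.18 for rhabdomyolysis and -1.82 ± 0.18 for cisplatin (adjusted p = 0.0192, 2.08e-13 and 6.27e-09). Rxra and Nr1h4 were also lower in rhabdomyolysis and cisplatin, and in IRI Nr1h4 was called (-0.80 ± 0.22 (adjusted p = 0.00234)). Nfe2l2, the antioxidant response factor, rose in all 3 (0.63, 1.13 and 1.58), as did Cebpb (1.98, 1.96 and 1.92). Of 14 genes for cofactor supply 8 are in the table, and 3 rose and 5 fell in each injury. Papss2, which makes the sulfate donor of sulfotransferases, fell most (-1.99, -2.87 and -1.56), and Ugdh, which makes the glucuronic acid donor, rose (1.03, 1.19 and 1.002).

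Of 20 other phase 1 enzymes 17 are in the table, with 8 higher and 8 lower in IRI, 8 and 8 in rhabdomyolysis, and 8 and 6 in cisplatin, a mixture like that of all genes. The aldo-keto reductase Akr1b8 rose from a control mean of 1.96 CPM (5.15, 5.17 and 5.45) and Akr1c21 fell (-3.13, -3.47 and -3.60). Of 18 other phase 2 enzymes 12 are in the table, with 2 higher (Mgst1 and Nnmt) and 10 lower in each injury. Inmt, a methyltransferase, fell most in IRI and cisplatin (-5.03 and -6.09) and Mgst1, the microsomal glutathione transferase, rose (1.95, 1.36 and 1.26). All 9 efflux transporters are in the table, with 6 higher and 2 lower in IRI, 7 and 2 in rhabdomyolysis, and 6 and 2 in cisplatin. Abcb1b, a P-glycoprotein gene, rose most in cisplatin (1.60, 1.41 and 3.39), and Slc47a1, which exports organic cations, fell (-1.11, -2.73 and -1.94).

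Markers of the labelled tissue were present, and they moved too. Of 11 proximal tubule markers 10 are in the table, and their summed level was 11977 to 17411 CPM in controls, 3340 to 4211 in IRI, 2170.0 to 2759 in rhabdomyolysis and 1470.3 to 2830.3 in cisplatin, with 8, 10 and 10 of them called lower. None of these 10 was at 0 in any library. The ratio of summed phase 1 reads to these markers was 0.741 to 0.944 in controls, 0.993 to 1.15 in IRI, 0.871 to 1.19 in rhabdomyolysis and 1.66 to 2.31 in cisplatin. For phase 2 it was 0.338 to 0.383, 0.618 to 0.724, 0.512 to 0.720 and 0.764 to 1.10. These ratios rest on 2 markers, Slc34a1 and Miox, which made up 61.4% of the marker level in controls. Over the other 8 markers, a choice made after seeing the data, the phase 1 ratio was 1.79 to 2.55 in controls, 1.43 to 1.71 in IRI, 2.45 to 2.90 in rhabdomyolysis and 2.22 to 2.83 in cisplatin. The phase 2 ratio was then 0.835 to 1.11, 0.927 to 1.08, 1.44 to 1.75 and 1.02 to 1.36. In IRI phase 1 thus lay above the controls with all 10 markers and below them with 8, and phase 2 above them with 10 and overlapping them with 8. In cisplatin both phases lay above the controls with 10 and overlapped them with 8. Markers of the S3 segment (3 of 3), the loop and distal tubule (5 of 6) and the collecting duct (4 of 6) in the table were all lower in each injury, and Pvalb of the distal tubule was at 0 in at least 1 rhabdomyolysis library.

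Markers of other cell types moved as well, in both directions. All 4 stromal markers were higher in each injury, with sums of 61.6 to 131 CPM in controls, 333 to 407 in IRI, 327 to 1012 in rhabdomyolysis and 158 to 475 in cisplatin. Of 6 markers of recruited myeloid cells 5 are in the table, with sums of 4.56 to 10.4, 21.2 to 30.0, 34.1 to 72.9 and 23.5 to 49.7 CPM, and 4, 5 and 4 were higher. Retnlg among them was at 0 in at least 1 control. Macrophage markers (4 of 5) summed to 67.1 to 93.9, 55.9 to 81.7, 73.5 to 157 and 158 to 194 CPM, where 2 were higher and 1 (Csf1r) lower in IRI and 3 higher and 1 lower in both other injuries. Endothelial markers (3 of 5) were higher in 2, 3 and 3 cases, the podocyte marker Podxl (1 of 4) was higher in each injury, and the T cell marker Cd8a (1 of 4) was lower in rhabdomyolysis and cisplatin. The part of these cell types in the members' changes was not tested.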

How the data were processed

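RNA from renal cortex of 20 mice was sequenced, 1 stranded poly(A) library per mouse, and the deposited table gives 6025 genes in CPM, counts scaled to a common library size. The submitters' processing notes name FastQC, Bowtie2 2.1.0, RSEM 1.2.15 and edgeR and the builds GRCm38 and mm10, with no role or order. The deposited CPM values, as the authors made them, come out as whole reads in 100% of cases (within 0.001). Reads in the table are 3476635 to 5396140 per library. The floor of 3 reads covers counting error only. The strand setting of the counting and the full library sizes are not given in the sources used here. In the table, every gene's mean differs 1.5-fold or more from controls in some injury, and each gene lies above 1 CPM in at least 4 libraries. No other per-sample columns were present (0).

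The members and all gene lists were chosen with earlier results of these data known. Log2(CPM + 1) values of the 5672 genes whose mean reached 1 CPM were fitted in 1 limma model (limma 3.58.1, R 4.3.3, empirical Bayes with a trend) with 5 groups: controls 1 to 4, controls 5 to 8 and the 3 injuries. P-values were adjusted by Benjamini-Hochberg over all genes tested and measure the spread between these mice. The script was tested on simulated data. Left out of the test were 353 genes, 6 of them members. The alternatives were other pseudocounts, minimum means, scalings, controls pooled, each library left out, a replicate block, phase 1 with Cyp1 to Cyp3 as its only P450 enzymes, and, added after seeing the data, edgeR 4.0.16 on the recovered reads. Values in every library are given for 30 members: in each family the 2 highest in controls and those with the largest called rise and fall, members called in opposite directions, and the 3 largest differences each way between rhabdomyolysis and cisplatin. Symbols were matched to RefSeq for 68 members directly and for Cyp2c44 by an older symbol. Exon lengths came from GENCODE on GRCm38 for 68 members. Transcripts were compared with BLAST 2.17.0, and 9 of 68 had another gene at 95% identity or more over at least 50% of their length. Tables and figures used Python 3.11.15, pandas 2.3.3, numpy 2.4.6 and matplotlib 3.10.9. Some regulators and motifs on the lists are not reported here.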

Additional observations from a re-analysis of the deposited data

Results flagged for a closer look

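In 9 of the 128 groups of 4 or 8 libraries examined (30 members and the sum of each phase), 1 library stood apart from the others by Dixon's ratio of its gap to the group's range. Chance gives 6.4 such groups, about 1 in 20. The high libraries were rhabdomyolysis 3 for Aox1 (ratio 0.900, 2.00 CPM where the others reached 0.795), control 1 for Ephx1 (0.542), control 2 for Gstm6 (0.529), control 6 for Cyp26b1 (0.674, 6.09 CPM where the other controls reached 2.07), IRI 4 for Gstm5 (0.882, 402 CPM where the others reached 352) and cisplatin 4 for Gstm5 (0.832, 406 CPM where the others reached 338). The low libraries were rhabdomyolysis 1 for Sult1c2 (0.974, 8.13 CPM where the others began at 12.7), control 6 for Sult2b1 (0.544) and cisplatin 2 for Ugt2b37 (0.847, 3.13 CPM where the others began at 5.52).

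Effects that differed between injuries by their own test were 46 of 63 members between rhabdomyolysis and cisplatin, 33 between IRI and rhabdomyolysis, and 28 between IRI and cisplatin. Of all genes tested, 54.1%, 52% and 30.3% were called in these comparisons, so the count between IRI and rhabdomyolysis (52.4%) is at the background. The widest were Ephx1 between rhabdomyolysis and cisplatin (log2 -3.82), Cyp4a12a between IRI and rhabdomyolysis (2.94) and Ugt1a10 between IRI and cisplatin (-3.90).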

How the results depend on the processing

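No member's call reversed under any alternative. Of 174 calls against controls, 5 were lost without 1 library and 4 under another setting, 6 in all (Cyp4f13, Ephx1, Ephx2 and Gsta4 in IRI, Cyp2s1 in rhabdomyolysis, Cyp4f13 in cisplatin). Of 107 calls between injuries, 20 were lost without 1 library and 14 under another setting. EdgeR on recovered reads called 4545, 5397 and 5186 genes in IRI, rhabdomyolysis and cisplatin, of which limma also called 4515, 5384 and 5178. Beyond which members enter the test, the cause of each change below was not tested.

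With a minimum mean of 5 CPM, phase 2 members called higher numbered 5, 4 and 5 in IRI, rhabdomyolysis and cisplatin. Gstm6, Sult2b1, Ugt1a1 and Ugt1a9, called higher in all 3 injuries, have means of 3.32, 1.61, 4.52 and 1.96 CPM. They left the test at this minimum, so the smaller counts are not calls lost by these genes. At this minimum, 2 phase 2 members had a lower value in IRI than in rhabdomyolysis. With all 8 controls as 1 group, 12 had a higher one. Same-numbered libraries did not deviate together (correlations -0.11 to 0.18 for IRI with controls, -0.21 to 0.32 for rhabdomyolysis with cisplatin), so they share only a number, and with the replicate block 3 phase 2 members in place of 5 were higher in rhabdomyolysis than in cisplatin.

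In IRI the phase 1 median was -1.62 with pseudocount 0.1, -1.33 with 75th percentile scaling, -1.003 with quantile normalization, -1.51 with all 8 controls, -1.66 with edgeR and -1.80 with Cyp1 to Cyp3 as the only P450 enzymes. The IRI phase 2 median was -0.55 with no minimum, -1.20 with 5 CPM, -0.96 with 75th percentile scaling, -0.87 with quantile normalization and -0.98 with all 8 controls. Their distance was 0.53, 0.85, 0.21, 0.13, 0.53, 0.54 and 0.71 with pseudocount 0.1, no minimum, 5 CPM, quantile normalization, all 8 controls, edgeR and Cyp1 to Cyp3 only. In rhabdomyolysis phase 1 was at -2.30 with Cyp1 to Cyp3 only, phase 2 at -0.78 with no minimum and -1.42 with 5 CPM, and the distance was 0.98, 1.04, 0.69, 0.77, 0.98 and 1.17 with pseudocount 0.1, no minimum, 5 CPM, quantile normalization, edgeR and Cyp1 to Cyp3 only. In cisplatin phase 1 was at -1.80 with Cyp1 to Cyp3 only, phase 2 at 0.051 with no minimum, which turned its sign, and -0.64 with 5 CPM, and the distance was 0.66 with 5 CPM and 1.67 with Cyp1 to Cyp3 only. The phase 1 median stayed below the phase 2 median in every one of these settings.

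Leaving out 1 library at a time, IRI medians ran from -1.59 to -1.32 in phase 1 and -1.20 to -0.96 in phase 2, and the distance from 0.32 to 0.49. In rhabdomyolysis they ran from -2.13 to -1.88, -1.24 to -1.07 and 0.76 to 0.94, and in cisplatin from -1.46 to -1.20, -0.21 to -0.05 and 0.99 to 1.40. Members lower in IRI than in rhabdomyolysis ran from 5 to 11 in phase 1 and 1 to 4 in phase 2, and phase 1 members higher in IRI than in cisplatin from 5 to 9. The median log2 fold change of all genes, 0.08, 0.31 and 0.30 in IRI, rhabdomyolysis and cisplatin, was 0.18, 0.44 and 0.37 with 75th percentile scaling and 0.0042, 0.14 and 0.029 with quantile normalization. Members with few reads, such as Sult1e1, Ugt1a9, Aox1 and Sult2b1, are limited by depth.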
